A study of Mus musculus with 4 samples.

Results

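Agr2, Spink4, Lgals2, Lgals4, Itln1 and Tspan8 are 6 genes known from intestinal goblet cells and their neighbours, and they were followed here in pancreas cells that had been through repeated injury. They are 6 of the 32288 features of the deposited tables. They were chosen by name for their levels across the deposited cell types, so these levels are given as a description and were not tested. Only the change between time points was tested, since it had no part in that choice.

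Goblet cells are secretory cells that fill granules with mucin and release it as a protective gel. The endoplasmic reticulum (ER) of such cells needs folding enzymes to handle large, disulfide-rich mucins, and Agr2 is one of these, an ER-resident protein of the disulfide isomerase family. Spink4 encodes a secreted protein of the Kazal-type serine protease inhibitor family. Lgals2 and Lgals4 encode galectins, lectins that bind beta-galactoside sugars, and Itln1 encodes intelectin-1, a secreted lectin that binds microbial sugars. Tspan8 encodes a tetraspanin, a protein that spans the membrane several times and organises other membrane proteins. In the injured pancreas, acinar cells, which make digestive enzymes, can take on a ductal and mucin-producing state called metaplasia, and tuft cells (chemosensory cells) and enteroendocrine cells (hormone-secreting cells) can appear within it.

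The cells came from 4 mice, 2 treated for 2 weeks and 2 treated for 4 weeks with caerulein, a peptide that overstimulates acinar cells and causes pancreatitis. All 4 carried Ptf1aCre-ERTM;ROSAYFP/+ on a background backcrossed into CD-1, were 10 weeks old when injury began, and had received tamoxifen by gavage beforehand, which marks acinar cells with the fluorescent protein EYFP through a Cre driven by the acinar gene Ptf1a. Caerulein was injected into the peritoneum, injections ended before a short recovery, and no uninjured mice are analysed here. EYFP-positive cells were purified by sorting and profiled with 10x Genomics 3' chemistry, so every group shares the alleles, tamoxifen, caerulein and the sort. Each mouse is a separate animal, and the replicate numbers only name the mice.

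The mice gave 4715 to 6255 cells and 72459531 to 103610807 unique molecular identifiers (UMIs, which count captured transcripts) each, 21140 cells in all. The authors' cell type names covered 13362 cells in 8 types, and 2586 of them also had a tuft or enteroendocrine subtype. The 7778 cells without a name served as background. Defining genes were checked against the names. A mucin and ductal marker list of 12 genes summed to between 35495 and 126361 CPM (UMI counts per 1000000 UMIs of the same mouse and type) in MucinDuctal cells, against 2415 to 3639 CPM in Acinar cells, although Muc5ac was near 0 (39 UMIs in all typed cells). The lowest of these sums was that of 2-week mouse 2, and the other 3 mice had 95017 to 126361 CPM. The 10 tuft markers summed to between 10933 and 12627 CPM in Tuft cells and to at most 86.3 CPM in EEC (enteroendocrine) cells. Despite the sort, the untyped cells included B cell-like, T or NK cell-like, macrophage-like and fibroblast-like clusters. Of 21068 distinct barcodes, 67 occurred in more than 1 mouse (23 among typed cells), and the tests are also given without those cells.

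Several genes that define intestinal goblet cells were at or near 0 in the 13362 typed cells, and Tff3 was not. Atoh1, the transcription factor that starts the secretory lineage of the intestine, had 0 UMIs, which allows a share of up to 0.0225% of cells with a UMI. Muc2, the main intestinal gel mucin, had 9 UMIs in 9 cells, and Clca1, a secreted goblet cell protease, had 4 UMIs in 2 cells. Agr3, the paralog of Agr2, had 9 UMIs, St6galnac1 had 3, and Fcgbp, a mucin-associated protein, was found in 430 cells. Tff3, the intestinal trefoil peptide, had 4120 UMIs in 602 cells, 13.1 CPM over all typed cells. That is about as many UMIs as the member Lgals2 (4320). Of the deposited types, the mean level of Tff3 was highest in EEC cells, mostly through 2-week mouse 2. Among the tuft and enteroendocrine subtypes, Tff3 was highest in EEC-Progenitor (Neurog3+) cells in each mouse (191, 926, 168 and 149 CPM, 2715 UMIs). The cells are therefore called by their deposited names and the genes by their own names.

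All 6 genes are protein coding in GENCODE vM21 on GRCm38, the assembly of the mm10 build that the submitters' notes name. Agr2 (ENSMUSG00000020581) lies on the plus strand at chr12:35992907-36004087, with up to 8 exons in a transcript, and Spink4 (ENSMUSG00000028415) at chr4:40920052-40931395, also on the plus strand, with up to 4. Lgals2 (ENSMUSG00000043501) lies on the minus strand at chr15:78850860-78855529 with 4 exons. Lgals4 (ENSMUSG00000053964) lies on the plus strand at chr7:28833854-28841708 with up to 10. Itln1 (ENSMUSG00000038209) lies on the minus strand at chr1:171518122-171535294 with up to 8, and Tspan8 (ENSMUSG00000034127) on the plus strand at chr10:115816832-115849893 with up to 9. The 6 genes are on 6 chromosomes, so none neighbours another. Some mouse strains carry extra copies next to Lgals4 and Itln1 (Lgals6 and Itln2). Neither symbol is in the count tables or in the RefSeq gene table, so reads from such copies, if these mice carry them, could have been counted under Lgals4 or Itln1, and the counts of both are uncertain to that extent.

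The 250 bases before the RefSeq start are shown for the gene of the mucin cells (Agr2), the gene common to mucin and tuft cells (Tspan8) and the galectin with the most matches (Lgals2). The sequences are from RefSeq on GRCm38.p6, 5′ to 3′ on the strand of the gene, and capitals mark a match to a searched motif. The Agr2 window is chr12:35992675-35992924 (plus strand), the Lgals2 window chr15:78855530-78855779 (minus strand) and the Tspan8 window chr10:115817034-115817283 (plus strand). The Tspan8 window lies inside the span of the gene, since other transcripts start before it.
Agr2: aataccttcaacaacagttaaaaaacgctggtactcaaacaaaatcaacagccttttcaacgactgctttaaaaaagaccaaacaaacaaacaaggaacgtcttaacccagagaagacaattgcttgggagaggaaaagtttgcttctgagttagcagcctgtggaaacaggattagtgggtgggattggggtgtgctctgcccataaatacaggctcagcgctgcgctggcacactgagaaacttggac
Lgals2: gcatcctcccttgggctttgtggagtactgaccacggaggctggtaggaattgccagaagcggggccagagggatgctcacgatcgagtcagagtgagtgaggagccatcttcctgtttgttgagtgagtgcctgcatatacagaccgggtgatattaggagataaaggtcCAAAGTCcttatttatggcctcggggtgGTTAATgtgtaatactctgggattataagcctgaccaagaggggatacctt
Tspan8: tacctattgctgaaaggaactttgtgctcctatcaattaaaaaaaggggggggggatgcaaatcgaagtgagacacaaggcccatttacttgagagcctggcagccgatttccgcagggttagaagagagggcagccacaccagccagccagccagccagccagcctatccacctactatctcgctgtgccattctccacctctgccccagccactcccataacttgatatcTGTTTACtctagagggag

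Windows were found for 5 of the 6 members, Spink4 being the exception. Each was searched on both strands for TATAAA (the TATA box), TGTTTAC and TGTTTGC (letters bound by forkhead factors), GTTAAT (found in HNF1 sites) and CAAAGTC (found in HNF4 sites). Tspan8 held TGTTTAC 18 to 12 bases before its start, a motif found in 3.17% of all 32851 windows of this length. Lgals2 held CAAAGTC 79 to 73 bases and GTTAAT 51 to 46 bases before its start, and Itln1 held CAAAGTC 18 to 12 bases before its start. CAAAGTC was found in 3.84% of all windows and GTTAAT in 6.43%. TATAAA (12.4% of windows) and TGTTTGC (4.30%) were in none of the 5, and the windows of Agr2 and Lgals4 held none of the 5 motifs. None of the searched motifs was in all 5 windows, and a match is a description of the letters only.

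Levels below are CPM of summed cells and compare cell types for 1 gene at a time. A type entered only where the mouse had at least 20 cells of it, which left out Tuft/EEC.Progenitor cells of 2-week mouse 1 (10 cells). Of the 6 genes, 5 had their highest mean level in MucinDuctal cells, and Lgals4 had it in Tuft cells. The deposited types differed in depth, with medians per mouse of 24008 to 32664.5 UMIs per Acinar cell, 15110 to 21810 per MucinDuctal cell and 14809 to 20481 per Tuft cell, against 2860.5 to 3649 per B cell-like cell. Shares of cells with a UMI are therefore also given with each cell thinned to 1500 UMIs. Acinar enzymes made up 499810 to 591825 CPM of Acinar cells, which lowers the CPM and the thinned share of other genes there, so ratios to Acinar cells are also given with the enzymes left out of the total.

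**Figure D1:**
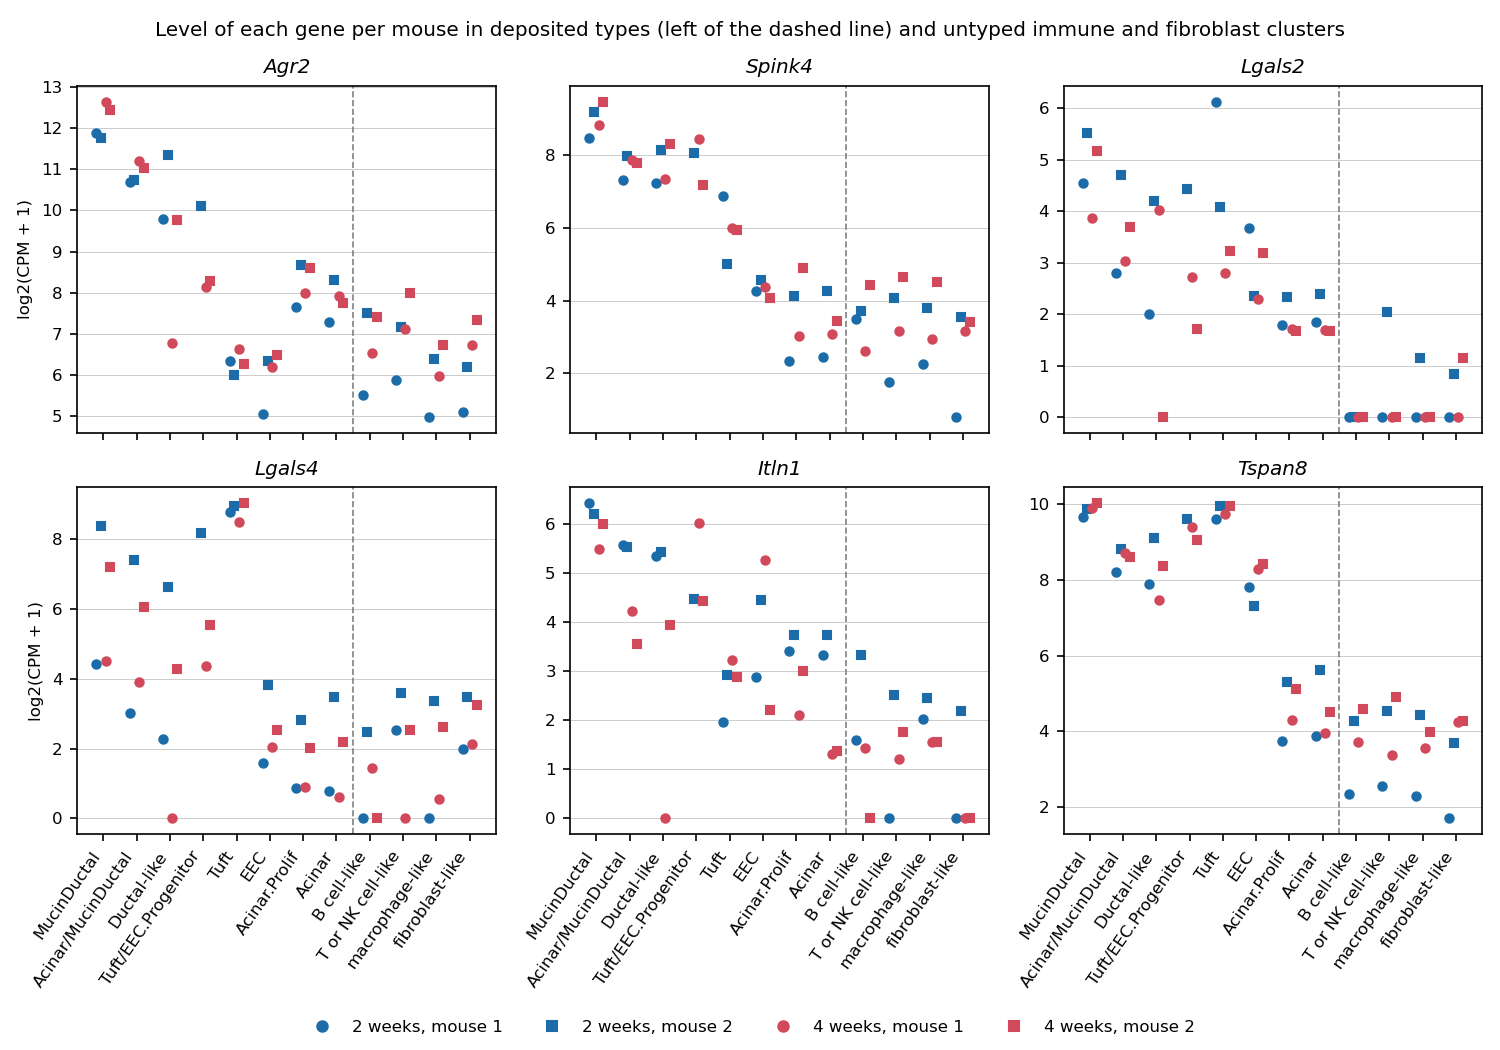
Level of each of the 6 genes, as log2(CPM + 1) on the vertical axis, in the 8 deposited cell types and, right of the dashed line, in 4 background clusters of untyped cells. Each point is 1 mouse. Agr2 and Spink4 are highest in MucinDuctal cells, Lgals4 in Tuft cells, and Tspan8 stands at the same height in both.

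Agr2, the ER folding enzyme, was the gene of the mucin-producing cells. Its level in MucinDuctal cells was 3743 and 3492 CPM in the 2-week mice and 6384 and 5584 CPM in the 4-week mice, a mean of 4801 ± 1408 CPM (SD, n = 4 mice). No other type reached this range. Cells named Acinar/MucinDuctal, which carry both programs, followed with 1656 and 1724 CPM at 2 weeks and 2362 and 2095 CPM at 4 weeks. Ductal-like cells, with only 22 to 56 cells per mouse, spread from 109 to 2597 CPM and overlapped their neighbours in the order. Acinar cells had 157 to 316 CPM. Within each mouse MucinDuctal cells were 11.0 to 26.3 times above Acinar cells, a log2 ratio of 4.37 ± 0.60 (SD, n = 4 mice) that was 3.24 with the enzymes left out of the total.

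Agr2 RNA was also counted in cells that should lack it. B cell-like cells had 44.8 to 182 CPM and T or NK cell-like cells 57.9 to 256 CPM, with the lowest value of each in 2-week mouse 1. EEC cells (32.3, 79.8, 72.9 and 88.5 CPM) were below both clusters of the same mouse in 4 of 4 mice. Tuft cells had 80.2, 62.7, 98.3 and 76.7 CPM, above both clusters in 2-week mouse 1 and above the B cell-like cells (92.6 CPM) in 4-week mouse 1. These 2 values rested on 1 cell each, with 93 of 137 UMIs (67.9%) and 215 of 327 UMIs (65.7%), and were 26.3 and 33.9 CPM without it, below both clusters. Of thinned cells, 3.93% to 10.5% of Tuft cells and 7.09% to 23.9% of B cell-like cells had an Agr2 UMI. In thinned Acinar cells the share was 18.5% to 31.4%, overlapping that of T or NK cell-like cells (8.66% to 26.6%). With the enzymes left out, Acinar cells had 331, 632, 595 and 523 CPM. T or NK cell-like cells had at most 256 CPM on the scale of all UMIs. In MucinDuctal cells the thinned share was 56.6% to 82.7%, above every background cluster named here. Unthinned, 85.4% to 94.3% of MucinDuctal cells and 63.7% to 86.6% of Acinar cells had a UMI.

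Spink4, the protease inhibitor, followed the same leading type. MucinDuctal cells had 350 and 575 CPM at 2 weeks and 454 and 704 CPM at 4 weeks, a mean of 521 ± 153 CPM (SD, n = 4 mice). Tuft/EEC.Progenitor (144 to 347 CPM in 3 mice), Ductal-like (151 to 316 CPM) and Acinar/MucinDuctal cells (159 to 250 CPM) came next and overlapped each other. Unlike Agr2, Spink4 stood above background in the Tuft cells of each mouse, with 116 and 30.9 CPM at 2 weeks and 62.9 and 60.6 CPM at 4 weeks, against 5.14 to 20.4 CPM in B cell-like cells. In T or NK cell-like cells it reached 24.0 CPM. EEC cells (18.3, 22.7, 19.7 and 15.7 CPM) were above both clusters of the same mouse in 3 of 4 mice, and Acinar cells (4.45, 18.1, 7.43 and 9.95 CPM) overlapped them. With the enzymes left out, Acinar cells had 9.41, 36.3, 18.2 and 24.4 CPM of Spink4. Of MucinDuctal cells 70.4% to 90.3% had a Spink4 UMI, and 26.7% to 41.9% after thinning, against 10.6% to 27.4% and 0.73% to 2.74% of Acinar cells. MucinDuctal cells exceeded Acinar cells by 31.7 to 78.6 times, a log2 ratio of 5.84 ± 0.59 (SD, n = 4 mice), or 4.71 without the enzymes.

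Lgals4, the tuft cell galectin of this set, had a steady level in Tuft cells and a very uneven one elsewhere. Tuft cells had 435 and 498 CPM at 2 weeks and 361 and 525 CPM at 4 weeks (mean 455 ± 72.9, SD, n = 4 mice), and 89.2% to 93.1% of them had a UMI. MucinDuctal cells had 20.6, 334, 22.0 and 147 CPM in the same order of mice, a 16.2-fold range. The share of MucinDuctal cells with a UMI went with it, from 19.1% (95% exact binomial interval 15.3% to 23.5%) in 2-week mouse 1 to 83.0% (80.9% to 84.9%) in 2-week mouse 2. The same mouse was highest in Acinar/MucinDuctal cells (7.14, 170, 14.1 and 65.0 CPM), in Acinar cells (0.74, 10.1, 0.54 and 3.53 CPM) and in EEC cells (1.97, 13.2, 3.16 and 4.76 CPM). In Ductal-like cells of 4-week mouse 1 no UMI was found in 23 cells, which allows a share of up to 13.0%. The high and the low mice included 1 of each time point. B cell-like cells had at most 4.56 CPM, below every Tuft value and every MucinDuctal value. T or NK cell-like cells had 4.83, 11.0, 0 and 4.79 CPM, above the Acinar cells in 3 of 4 mice, an order that turned with the enzymes left out in 2-week mouse 2 (20.2 CPM in Acinar against 11.2 CPM) and 4-week mouse 2 (8.65 against 5.15 CPM). The ratio of Tuft to MucinDuctal cells therefore ran from 1.49-fold in 2-week mouse 2 to 21.1-fold in 2-week mouse 1.

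Lgals2, the other galectin among the 6, was found at low levels. MucinDuctal cells had 22.6, 45.3, 13.6 and 34.9 CPM, and 15.2% to 46.3% of them had a UMI. Tuft cells had 69.1, 16.1, 6.01 and 8.44 CPM. The high value in Tuft cells of 2-week mouse 1 rested on 1 cell, which held 93 of the 118 Lgals2 UMIs (78.8%). In the MucinDuctal cells of that mouse 1 cell held 79 of 195 UMIs (40.5%). The 2 types overlapped, and their order cannot be read from these values. Acinar cells had 2.19 to 4.26 CPM. In the 553 B cell-like cells no Lgals2 UMI was found in any mouse, which allows a share of up to 1.96% to 2.38% per mouse.

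Itln1, the secreted lectin, was carried by few cells. MucinDuctal cells had 85.2 and 72.2 CPM at 2 weeks and 44.1 and 63.3 CPM at 4 weeks (mean 66.2 ± 17.3, SD, n = 4 mice). Only 15.3% to 30.7% of these cells had a UMI, and the 1% of cells with the most held 41.1% to 57.0% of the Itln1 UMIs. Acinar/MucinDuctal cells had 46.5, 45.3, 17.7 and 10.7 CPM and Ductal-like cells 39.5, 42.1, 0 and 14.3 CPM, so both were higher in each 2-week mouse than in either 4-week mouse. Acinar cells had 9.0, 12.4, 1.49 and 1.60 CPM. B cell-like cells had 2.04, 9.11, 1.71 and 0 CPM and T or NK cell-like cells at most 4.72 CPM. With the enzymes left out, Acinar cells had 19.0, 24.8, 3.66 and 3.92 CPM and were above both clusters (B cell-like cells at most 9.22 CPM) of the same mouse in 4 of 4 mice. Tuft cells (2.93, 6.57, 8.42 and 6.33 CPM) were above B cell-like cells of the same mouse in 3 of 4 mice.

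Tspan8, the tetraspanin, was common to the mucin and the tuft cells. MucinDuctal cells had 813, 944, 963 and 1052 CPM and Tuft cells 788, 993, 865 and 988 CPM, with ranges that overlapped almost fully. The log2 ratio of Tuft to MucinDuctal cells was -0.05 ± 0.10 (SD, n = 4 mice). Nearly all cells of both types had a UMI, 99.0% to 100% of MucinDuctal and 97.9% to 100% of Tuft cells, and after thinning 66.8% to 75.9% and 66.4% to 73.6%. Tuft/EEC.Progenitor cells followed with 790, 677 and 530 CPM. EEC cells had 222, 157, 311 and 345 CPM. Acinar cells, with 13.5, 48.5, 14.4 and 21.9 CPM, were above T or NK cell-like cells (4.83, 22.0, 9.27 and 28.8 CPM) in 3 of 4 mice on the scale of all UMIs. MucinDuctal cells exceeded Acinar cells by 19.5 to 66.9 times and Tuft cells exceeded them by 20.5 to 60.1 times. Without the enzymes the mean log2 ratios were 4.33 and 4.26, and Acinar cells were above T or NK cell-like cells in 4 of 4 mice.

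The authors split MucinDuctal cells into clusters 1 and 2, and the 6 genes differed in which side they were on. These clusters were drawn on all genes, members included, so the values are a description. Cluster 1 held 113, 1138, 228 and 551 cells and cluster 2 held 258, 250, 733 and 712, so the mice contributed unequally. Agr2 was 828, 1399, 1662 and 2208 CPM in cluster 1 and 4775, 12501, 7409 and 8071 CPM in cluster 2, higher in cluster 2 in 4 of 4 mice (log2 ratio 2.43 ± 0.56, SD). Itln1 was on the same side, with 17.3, 13.2, 4.06 and 8.59 CPM in cluster 1 and 109, 327, 52.8 and 104 CPM in cluster 2 (log2 ratio 3.65 ± 0.81, SD, 4 of 4 mice).

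Both galectins and the tetraspanin were on the other side. Lgals4 was 34.6, 392, 66.5 and 305 CPM in cluster 1 and 15.7, 82.9, 12.3 and 30.5 CPM in cluster 2, a log2 ratio of -2.28 ± 0.90 (SD, lower in cluster 2 in 4 of 4 mice). The mice therefore differed in Lgals4 within each cluster as well. Lgals2 had a log2 ratio of -1.20 ± 0.77 and Tspan8 of -0.49 ± 0.13 (SD, n = 4 mice each), lower in cluster 2 in every mouse. Spink4 did not separate the clusters, with a log2 ratio of 0.18 ± 0.28 (SD) and 2 of 4 mice above 0. In the mixed Acinar/MucinDuctal cells median depth ran from 2659 to 19556 UMIs per cell between mice. On the scale of all UMIs, all 6 genes were higher in cluster 4 than in cluster 3 in 4 of 4 mice. The log2 ratio was 1.68 ± 0.84 for Agr2, 1.56 ± 0.75 for Spink4 and 1.63 ± 0.72 for Tspan8 (SD, n = 4 mice). It was 1.35 ± 0.65 for Itln1, 0.81 ± 0.56 for Lgals4 and 0.93 ± 1.25 for Lgals2. For Lgals2 it was only 0.16 and 0.50 in the 2-week mice and 0.27 in 4-week mouse 2. Cluster 4 held fewer acinar enzyme counts, 103867 to 158141 CPM against 359651 to 379994 CPM in cluster 3, which lifts its CPM of other genes. The ratios were not taken without the enzymes, so the order is uncertain where they are small.

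**Figure D2:**
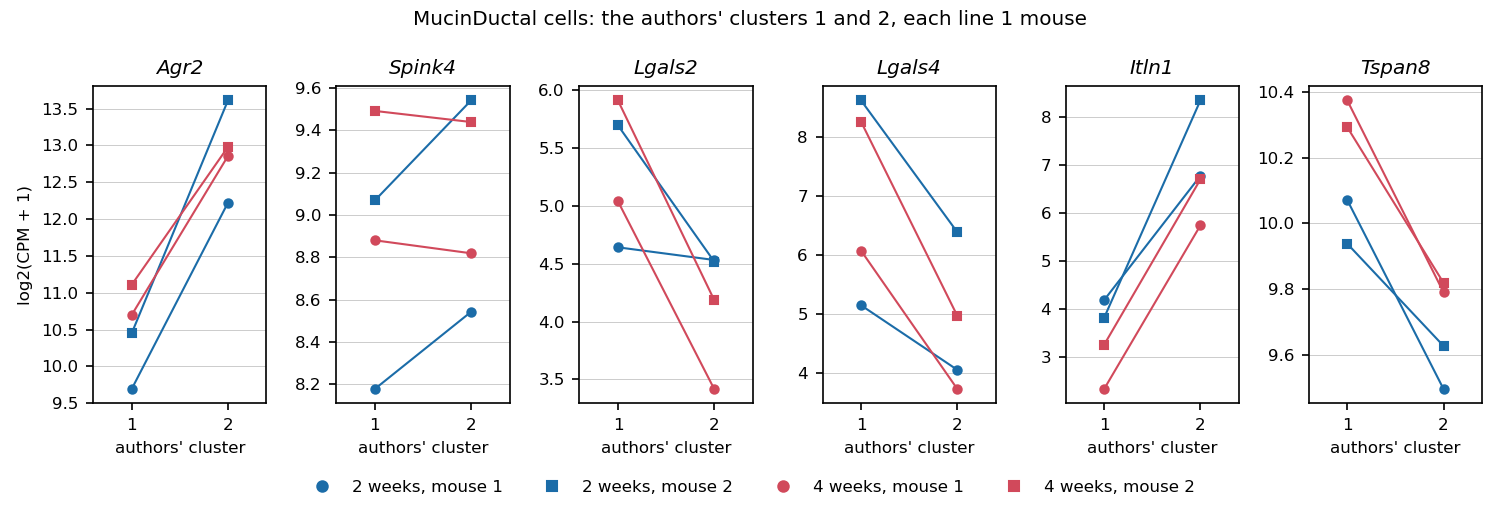
CPM of each gene on a log axis in clusters 1 and 2 of the MucinDuctal cells, with a line joining the 2 values of each mouse. Lines for Agr2 and Itln1 climb toward cluster 2 in all 4 mice, those for Lgals2, Lgals4 and Tspan8 descend, and those for Spink4 are nearly level.

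Among the tuft subtypes, Lgals4 and Tspan8 were lower in Tuft-1 cells than in Tuft-2 and Tuft-3 cells. Only 2-week mouse 2 (166 cells) and 4-week mouse 2 (26 cells) had 20 or more Tuft-1 cells. In these mice Lgals4 was 132 and 118 CPM in Tuft-1, 485 and 446 CPM in Tuft-2 and 876 and 643 CPM in Tuft-3. Tspan8 was 531 and 440 CPM in Tuft-1, 1269 and 1052 CPM in Tuft-2, and 1030 and 1047 CPM in Tuft-3. Across all 4 mice Lgals4 was higher in Tuft-3 (535, 876, 463 and 643 CPM) than in Tuft-2 (387, 485, 318 and 446 CPM) within each mouse. Spink4 was also higher in Tuft-3 (124, 38.4, 91.4 and 51.2 CPM) than in Tuft-2 cells (48.0, 27.4, 34.8 and 23.5 CPM) within each mouse, with overlapping ranges. Itln1 had 1 high value among the endocrine subtypes, 152 CPM in EEC-Progenitor (Neurog3+) cells of 4-week mouse 1, where 8.24% of 85 cells had a UMI, against 5.87, 29.7 and 9.38 CPM in the other mice. In EEC cells as a whole, single cells held 53 of 142 Itln1 UMIs in 4-week mouse 1 and 47 of 105 in 2-week mouse 2. Agr2 was 8.73 to 50.1 CPM in Tuft-2 and Tuft-3 cells, below the level of B cell-like cells of the same mouse. In MucinDuctalProgenitor cells, a subtype of the tuft and enteroendocrine table, every cell had a Tspan8 UMI in each mouse (5 to 118 cells).

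**Figure D3:**
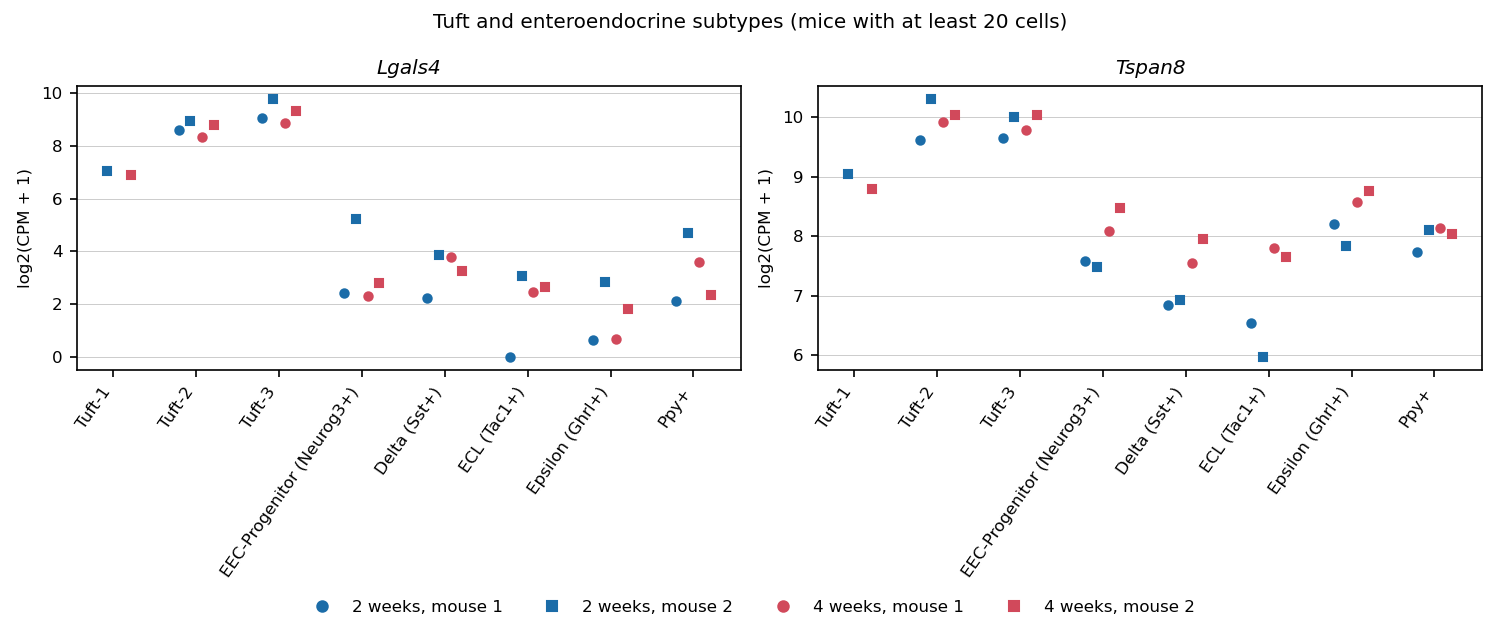
CPM of Lgals4 and Tspan8 in the tuft and enteroendocrine subtypes, 1 point per mouse with at least 20 cells of the subtype. Lgals4 is highest in Tuft-2 and Tuft-3 cells, and Tspan8 is present in every subtype shown.

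The number of the 6 genes with a UMI in a cell depends on depth, so it was taken in cells thinned to 1500 UMIs. MucinDuctal cells then had a mean of 1.76, 2.16, 1.98 and 2.20 of the 6 genes, Tuft cells 1.29, 1.29, 1.26 and 1.42, and Acinar cells 0.23, 0.45, 0.31 and 0.33. B cell-like cells, which should lack these genes, had 0.089, 0.27, 0.17 and 0.30, below all 3 types in each mouse. T or NK cell-like cells reached 0.36, above the Acinar cells of the same mouse (4-week mouse 2), whose UMIs include the enzymes. Unthinned, the means were 3.24, 4.29, 3.21 and 3.71 in MucinDuctal and 1.22, 2.17, 1.45 and 1.63 in the deeper Acinar cells. Within a mouse and a cluster, Agr2 went with Muc6, the gland mucin, in cluster 1 cells (Spearman rho 0.52 to 0.68 over the 4 mice) and less in cluster 2 cells (0.19 to 0.39). Agr2 and Spink4 had rho between 0.11 and 0.14 in cluster 1 and between -0.06 and 0.07 in cluster 2. Tspan8 and Muc6 had rho between -0.10 and 0.12 in cluster 1 and between -0.32 and -0.28 in cluster 2. Lgals4 and Tspan8 had rho between 0.35 and 0.53 in cells of Tuft cluster 7, between 0.17 and 0.30 in Tuft cluster 10 and between 0.06 and 0.24 in the MucinDuctal clusters. The tuft subtypes differed in both genes and were not taken apart within these Tuft clusters. The cells of a mouse share a library and depth, and these values carry no test.

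Related genes were read from lists of 26 goblet secretory genes, 10 gastric mucous genes and the galectin, tetraspanin, Spink and intelectin families. Of the goblet secretory list, 14 of 26 reached a mean of 10 CPM in a type, and 8 of these 14 were highest in MucinDuctal cells. They included Spdef, a transcription factor of goblet cell maturation (98.1 ± 20.1 CPM), Ern2, the epithelial ER stress sensor (93.3 ± 17.9 CPM), Creb3l1, an ER-bound transcription factor (188 ± 54.9 CPM), and Pdia6, a disulfide isomerase (621 ± 141 CPM, SD, n = 4 mice each). Spdef did not stand apart there, with 68.2 to 111 CPM in MucinDuctal and 55.6 to 76.7 CPM in Tuft cells. Its mean in Tuft/EEC.Progenitor cells was 89.4 CPM. The share of all genes highest in MucinDuctal cells was not taken, so nothing is read from the counts of these lists. The rest of the 14 were highest in other types. Klf4 (203 ± 20.8 CPM) and the membrane mucin Muc13 (72.0 ± 24.1 CPM) were highest in Tuft cells, Tff3 had its highest mean in EEC cells (133 ± 160 CPM), and Zg16, a granule protein that acinar cells also make, was highest in Acinar.Prolif cells (7612 ± 2946 CPM, SD, n = 4 mice each). The Tff3 mean rested largely on 2-week mouse 2 (51.3, 373, 67.6 and 42.0 CPM). In 4-week mouse 2 Tuft/EEC.Progenitor cells had more Tff3 (103 CPM). By subtype, EEC-Progenitor (Neurog3+) cells had the most Tff3 in each mouse (191, 926, 168 and 149 CPM). Delta (Sst+) cells had at most 3.43 CPM.

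Of the gastric mucous list 5 of 10 genes reached 10 CPM, and all 5 were highest in MucinDuctal cells, with Gkn3 at 48109 ± 20672 CPM, Tff2 at 34953 ± 16625 CPM and Muc6 at 4384 ± 1875 CPM (SD, n = 4 mice). Among 8 galectins that reached 10 CPM, 3 were highest in MucinDuctal, 3 in Ductal-like and 2 in Tuft cells. Besides Lgals4, Lgals9 was the one highest in Tuft cells (111 ± 37.3 CPM). Among 21 such tetraspanins 7 were highest in Ductal-like, 5 in MucinDuctal, 5 in Tuft and 4 in EEC cells. Tspan1, like Tspan8, was near level between MucinDuctal (227 CPM) and Tuft cells (222 CPM), while Tspan6 was 438 CPM in Tuft and 7.90 CPM in MucinDuctal cells. Spink1, the trypsin inhibitor of acinar cells, was highest in Acinar cells (2659 ± 868 CPM), opposite to Spink4.

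The genes whose pattern was most like each member were found by Pearson correlation of log2(mean CPM + 10) over 15 types and subtypes among 5313 genes. For Agr2 these were Kitl (r = 0.976), Tff2 (0.969) and Mpzl2 (0.964), and for Spink4 they were Foxq1 (0.943), Gas6 (0.930) and Wfdc18 (0.926). Lgals4 was most like Anxa1 (0.981), Mgst2 (0.980) and Lcp1 (0.977), and Tspan8 was most like Elf3 (0.953), Erbin (0.940) and Cbr1 (0.934). Itln1 was nearest to Cblif (0.909), Cdo1 (0.898) and Id1 (0.893), and Lgals2, with the lowest values, to Sord (0.859), Atp1b1 (0.848) and Napepld (0.845). Between members, r was 0.82 for Lgals4 and Tspan8, 0.78 for Spink4 and Itln1, 0.76 for Agr2 and Spink4, and 0.06 for Agr2 and Lgals4. These coefficients describe likeness over groups that share mice and carry no p.

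Whether the 6 genes changed between 2 and 4 weeks was tested within 14 types and subtypes that had at least 20 cells in every mouse, with edgeR's quasi-likelihood test on counts summed per mouse and type, 2 mice against 2, and Benjamini-Hochberg adjustment over all genes of the type. Fold changes are 4 weeks over 2 weeks. Of 84 pairs of gene and type, 70 had enough counts to be tested and 14 did not. A single pair passed an adjusted p of 0.05, and 13 of the 70 had an unadjusted p under 0.05, against 4.71% over all genes and groups tested. The pairs share mice and cells and were not drawn at random, so this count carries no test. Over all genes, percent called was 0.0816% in ECL (Tac1+), 0.159% in Ppy+, 0.114% in Tuft-3, 0.0453% in EEC-Progenitor (Neurog3+), 0.0154% in Delta (Sst+) and 0.00995% in Acinar.Prolif cells. It was 0% in Acinar, Acinar/MucinDuctal, Ductal-like, EEC, Epsilon (Ghrl+), MucinDuctal, Tuft and Tuft-2 cells, although 338 to 739 genes in each had an unadjusted p under 0.05. DESeq2 called 14 genes as higher and 26 as lower in MucinDuctal cells, 4 and 11 in Acinar cells and 0 in Tuft-2 and Ductal-like cells. CPM is relative to all RNA of the type, so it does not show a change in cell number or in total RNA per cell.

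The pair that passed was Tspan8 in ECL (Tac1+) cells, an enteroendocrine subtype named for enterochromaffin-like cells. Tspan8 was 91.7 and 61.5 CPM in the 2-week mice and 223 and 201 CPM in the 4-week mice. It rose by a log2 fold change of 1.50 (SE 0.22, edgeR quasi-likelihood adjusted p = 0.0189). Both 4-week mice were above both 2-week mice, as in 1283 of the 7349 genes tested in these cells. By DESeq2 the adjusted p was 0.141, and without edgeR's robust option it was 0.0893. Leaving out cells whose barcode occurred in more than 1 mouse left it at 0.0189. That fit had the same number of genes tested (7349) and with an unadjusted p under 0.05 (380), so it is no check of this result. In the same cells the sum of the 12 mucin and ductal markers was 1877 and 1546 CPM at 2 weeks and 5318 and 3784 CPM at 4 weeks. Of the 12, 9 were detected, with Muc5ac, Gkn1 and Gkn2 at 0. Tff2 went from 433 and 454 to 3194 and 1138 CPM, and Gkn3 from 879 and 291 to 1254 and 1889 CPM. Tff2 and Gkn3 made up most of each 4-week sum, so the sum does not show a rise of the whole list. Tuft markers summed to 20.8, 60.5, 49.1 and 12.4 CPM. Median depth per ECL cell was 11062 and 12533 UMIs at 2 weeks and 8907 and 8234 at 4 weeks. The part of other cells' RNA and of depth in this result was not tested.

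Tspan8 was also above in both 4-week mice in 4 other endocrine groups, without passing the adjustment. Of all genes tested, both 4-week mice were above both 2-week mice in 8.85% in EEC, 17.4% in Delta (Sst+), 3.87% in Epsilon (Ghrl+) and 20.2% in EEC-Progenitor (Neurog3+) cells. The log2 fold change was 0.86 in EEC cells as a whole (SE 0.21, adjusted p = 0.986), 0.91 in Delta (Sst+) (adjusted p = 0.259), 0.81 in Epsilon (Ghrl+) (adjusted p = 0.999) and 0.73 in EEC-Progenitor (Neurog3+) cells (adjusted p = 0.434, all edgeR quasi-likelihood). In Ppy+ cells the mice overlapped (213, 274, 279 and 262 CPM). Most cells of these subtypes are also EEC cells (98.6% of Delta (Sst+), 100% of Epsilon (Ghrl+) and 85.2% of EEC-Progenitor (Neurog3+) cells, with 14.6% of the last named Tuft/EEC.Progenitor), so the EEC values share cells with them and are not separate observations. In Tuft cells the log2 fold change of Tspan8 was 0.05 (SE 0.16) and in MucinDuctal cells 0.32 (SE 0.21), with adjusted p = 1.00 and 0.824 by the same test. In MucinDuctal cells too, both 4-week mice (963 and 1052 CPM) were above both 2-week mice (813 and 944 CPM). So were 9.54% of all genes tested there. Whether endocrine, tuft and mucin cells differed in their change was not tested. The mucin and ductal markers summed to 1825, 2498, 2904 and 3138 CPM in EEC, 1453, 1473, 3363 and 2203 CPM in Delta (Sst+) and 4136, 3496, 4404 and 5267 CPM in EEC-Progenitor (Neurog3+) cells, higher in both 4-week mice in each. In Epsilon (Ghrl+) cells they overlapped (1704, 2191, 2041 and 2411 CPM). Tuft markers summed to 13.1, 41.2, 605 and 48.9 CPM in Delta (Sst+) cells, of which 2 carried the type name Tuft. In EEC cells the tuft sum was 21.2, 86.3, 61.3 and 42.0 CPM. It was 109, 345, 145 and 182 CPM in EEC-Progenitor (Neurog3+), 14.7, 50.6, 12.3 and 22.6 CPM in Epsilon (Ghrl+) and 6.75, 358, 573 and 22.7 CPM in Ppy+ cells. The part of either marker list in these values was not tested.

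Agr2 was higher in both 4-week mice in MucinDuctal cells, as were 9.54% of all genes tested there, with a log2 fold change of 0.85 (SE 0.29, edgeR quasi-likelihood adjusted p = 0.824). DESeq2 gave an adjusted p of 0.0156 for the same counts. The share of these cells in cluster 2, where Agr2 was high, differed between mice, as the cell numbers above show. Within cluster 1 both 4-week mice were above both 2-week mice, and within cluster 2 the mice overlapped. The summed mucin and ductal markers of MucinDuctal cells were 99685, 35495, 126361 and 95017 CPM. In ECL (Tac1+) cells Agr2 was 35.4 and 69.9 CPM at 2 weeks and 167 and 133 CPM at 4 weeks, a log2 fold change of 1.39 (SE 0.29, adjusted p = 0.182). In 4-week mouse 1 a single cell held 37 of the 75 UMIs (49.3%), and without it the value was 90.5 CPM. The log2 change was 1.05 to 2.09 when a mouse was left out. B cell-like cells had 44.8, 182, 92.6 and 171 CPM.

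Itln1 was lower in both 4-week mice in 5 tested groups of acinar, mucin and ductal cells, without passing in any. Such an order was common in CPM, being found in 61.8% of all genes tested in Acinar, 27.3% in Acinar.Prolif, 22.6% in Acinar/MucinDuctal, 18.7% in Ductal-like and 30.2% in MucinDuctal cells, so nothing is read from it. These groups come from the same mice. The log2 fold change was -2.32 in Acinar cells (SE 0.22, edgeR quasi-likelihood adjusted p = 0.0639) and -1.67 in Acinar/MucinDuctal cells (SE 0.23, adjusted p = 0.119), so neither passed. The Acinar values (9.0, 12.4, 1.49 and 1.60 CPM) stand beside 2.04, 9.11, 1.71 and 0 CPM in B cell-like cells. DESeq2 gave adjusted p-values of 3.02e-07 and 0.00319, and edgeR without the cells of shared barcodes gave 0.0516 and 0.0967. In Ductal-like cells it was -2.45 (SE 0.73, adjusted p = 0.900), with 0 Itln1 UMIs in the 23 cells of 4-week mouse 1, and -1.54 without that mouse. Those cells stood apart, with 100562 CPM of acinar enzymes against 21341 to 28751 CPM in the other mice and a median of 8889 UMIs against 21039 to 38505.5. Without 4-week mouse 2 the 4-week value is 0 and the fitted change is no bound. The log2 change was -0.43 in MucinDuctal cells (SE 0.22, edgeR quasi-likelihood adjusted p = 0.824). Beside the Acinar value, the acinar enzyme genes summed to 527030 and 499810 CPM at 2 weeks and 591541 and 591825 CPM at 4 weeks, and immediate early genes, which respond to tissue dissociation, to 879, 1916, 411 and 505 CPM. Their part in the result was not tested.

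Lgals2 in Tuft-3 cells had a log2 fold change of -2.51 (SE 0.43, edgeR quasi-likelihood adjusted p = 0.0783), from 15.3 and 38.4 CPM to 6.84 and 4.52 CPM. It was -1.47 without 2-week mouse 2 and -2.83 without 2-week mouse 1, fits that leave 1 mouse at 2 weeks. Spink4 and Lgals4 passed in no group. Lgals4 in MucinDuctal cells had a log2 fold change of -0.93 with an SE of 1.44, wider than the change itself, and ran from -2.85 to 2.12 when a mouse was left out, and Spink4 there had 0.45 (SE 0.34, adjusted p = 0.843). Over the 70 tested pairs 34 had a higher and 36 a lower value at 4 weeks. In 22 of the 70 tested pairs the mice of the time points did not overlap in CPM, 11 (15.7%) with 4 weeks above and 11 with 4 weeks below. Over all genes and groups tested these shares were 11.7% and 25.5%, and nothing about the 6 genes is read from the count. The median log2 change of all genes tested lay between -0.03 and 0.01 in the 14 groups.

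**Figure D4:**
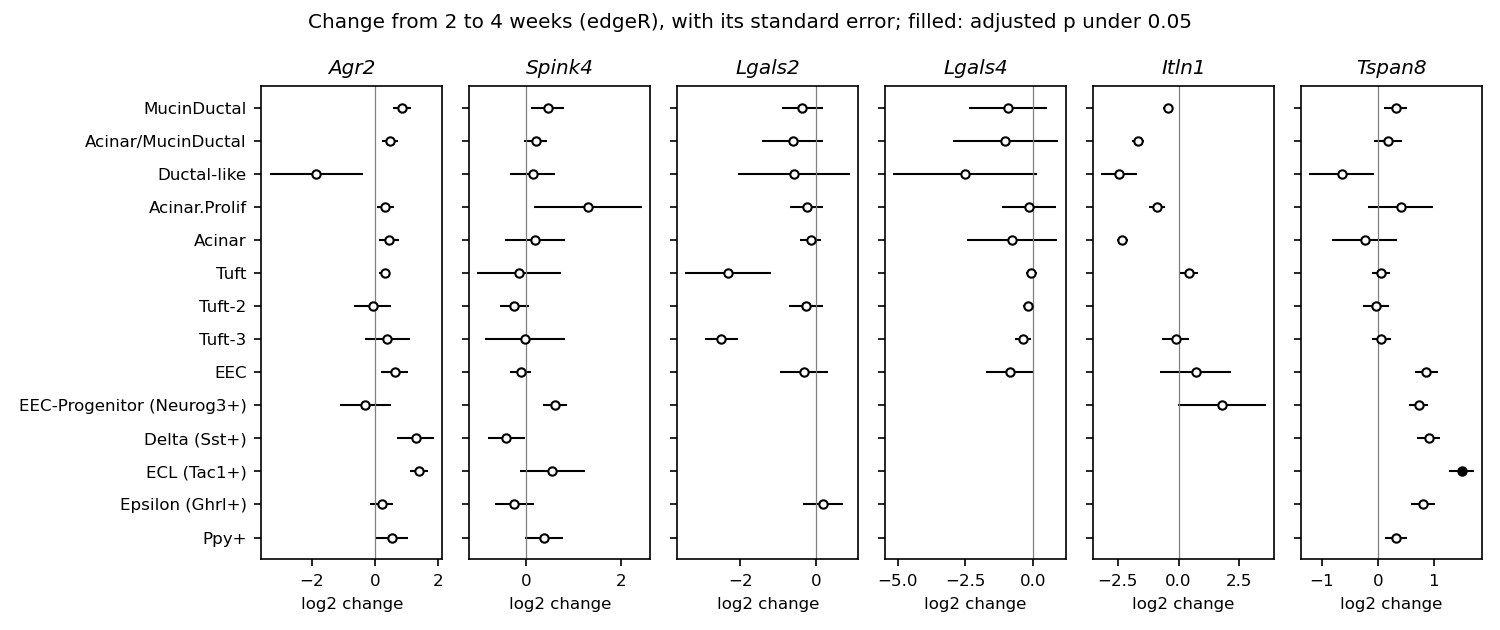
Log2 fold change of each gene from 2 to 4 weeks in each tested type or subtype, with bars of 1 SE, and filled points where the adjusted p was under 0.05. The filled point is Tspan8 in ECL (Tac1+) cells at 1.50, and Itln1 lies below 0 in Acinar and Acinar/MucinDuctal cells.

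Few genes of the related lists passed the test. In MucinDuctal cells 0 of 18 tested goblet secretory genes passed in either direction (5 had an unadjusted p under 0.05 by edgeR, as did 5.39% of all genes tested there), with a median log2 change of 0.41. For the gastric mucous genes it was 0 of 8 (1 under 0.05), with a median of 0.76, against a median of -0.01 over all 13463 genes tested. Galectins, a list that includes Lgals2 and Lgals4, had 0 of 9 called there (2 under 0.05) and a median of -0.70, with 1 of 9 above 0 against 49.0% of all genes tested. This was not particular to MucinDuctal cells. The galectin median was below 0 in every tested group, such as -0.37 in Tuft, -0.38 in EEC and -0.13 in Ppy+ cells. In ECL (Tac1+) cells 1 of 16 tested tetraspanins passed, which was Tspan8 itself, and 0 of 4 gastric mucous genes passed (2 had an unadjusted p under 0.05, as did 5.17% of all genes tested there), with a median log2 change of 1.48. The median over all genes tested in ECL (Tac1+) cells was 0.0013.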

How the data were processed

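Single-cell RNA was measured in sorted EYFP-positive pancreas cells of 4 mice. The authors deposited raw UMI counts per gene and cell in a merged table of 21140 cells, with smaller tables for 13362 typed and 2586 subtyped cells whose counts were identical to the merged table (summed absolute difference 0). The smallest cell had 1000 UMIs. Cell Ranger 4.0.0, Seurat 3.2.3 and the mm10 build are named in the submitters' processing notes, and cell type names and cluster numbers are the authors'. How the names were assigned is not given in the sources used here. Per-sample columns of other origin numbered 0.

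Counts were summed per mouse and type and scaled to CPM of all UMIs of that mouse and type. Mean and SD are over mice. Types were not tested against each other, since the members were chosen for their levels across types. Shares of cells with a UMI carry 95% exact (Clopper-Pearson) intervals, and the limit for a count of 0 is 3 counts. Both cover counting error only. Thinned shares are the expected share when each cell is drawn down to 1500 UMIs, with shallower cells left out. Time points were compared with edgeR 4.0.16 under R 4.3.3 (quasi-likelihood test, robust, TMM, filterByExpr) on all genes of a type where no mouse had fewer than 20 cells, with Benjamini-Hochberg adjustment within the type, called at 0.05, with DESeq2 1.42.0 as an alternative. The mouse is the replicate, 2 per time point. The SE given with an edgeR change was worked back from the test, as the absolute log2 change over the square root of its F statistic.

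Untyped cells were clustered with scanpy 1.11.5 and named from marker lists, under a naming condition set after the clusters had been seen. Clusters that failed it stay unnamed. The doublet caller scrublet marked 32 cells (0.151%). That is too low a share for its calls to be usable, and all cells were kept. As an alternative, 905 cells of highest doublet score (480 of them typed) were left out. Promoter letters came from RefSeq, and positions from GENCODE vM21. The genes named are the 6 members, the 3 genes most like each and the genes of the lists, under the rule that a likeness candidate had at least 50 CPM in a group. The members, lists, motifs and alternatives were chosen with earlier results of these data known, and leaving out cells with shared barcodes, or the cell with the most UMIs of a gene, was chosen after seeing these files.

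The test was run on simulated counts with 200 genes changed 4-fold. For MucinDuctal cells (13463 genes) it found 183 of the 200 and made 10 false calls. For Tuft cells (10967 genes) it found 190 and made 12 false calls. Every simulated gene had the same dispersion, 0.061 in MucinDuctal and 0.031 in Tuft cells. The shares found do not carry over to genes that vary more between mice, such as Lgals4 in MucinDuctal cells (SE 1.44).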

Additional observations from a re-analysis of the deposited data

Results flagged for a closer look

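Agr2 had values of opposite sign over time in different cell types, with both 4-week mice on one side of both 2-week mice in each, although none passed the test (edgeR quasi-likelihood adjusted p 0.182 to 0.999). The log2 change from 2 to 4 weeks was 0.48 in Acinar/MucinDuctal, 0.85 in MucinDuctal, 1.29 in Delta (Sst+) and 1.39 in ECL (Tac1+) cells, where the 4-week mice were above, and -1.86 in Ductal-like cells, where they were below. Of all genes and groups tested, 11.7% lay above and 25.5% below in this way. The Ductal-like values rest on 22 to 56 cells per mouse (880, 2597, 109 and 870 CPM), and the change lay between -3.96 (without 4-week mouse 2) and -0.84 (without 2-week mouse 2) when a mouse was left out. In the same cells the mucin and ductal markers summed to 22968, 21578, 6586 and 14971 CPM. The Ductal-like cells of 4-week mouse 1 stood apart, with 100562 CPM of acinar enzymes against 21341 to 28751 CPM in the other mice and a median of 8889 UMIs per cell against 21039 to 38505.5, and without that mouse the change was -1.04. Delta (Sst+) cells had 29.8, 82.4, 181 and 94.9 CPM, and their summed mucin and ductal markers were 1453, 1473, 3363 and 2203 CPM; without a mouse the change was 0.75 to 2.15. In Acinar/MucinDuctal cells these markers summed to 41302, 16863, 63339 and 55681 CPM. The part of these markers and of depth was not tested. The difference between the types was not tested.

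Spink4 lay higher in both 4-week mice in EEC-Progenitor (Neurog3+) cells (log2 change 0.60, adjusted p = 0.911 by edgeR's quasi-likelihood test) and lower in both in Epsilon (Ghrl+) cells (log2 change -0.25, adjusted p = 0.999 by the same test). So did many genes, with 20.2% of all genes tested above in EEC-Progenitor (Neurog3+) cells and 2735 of 9498 below in Epsilon (Ghrl+) cells. In EEC-Progenitor (Neurog3+) cells (35.2, 28.5, 54.6 and 42.6 CPM) single cells held 15 of 24 UMIs in 2-week mouse 1, 32 of 55 in 4-week mouse 1 and 28 of 50 in 4-week mouse 2. Without the top cell of each mouse the values were 13.4, 25.3, 23.2 and 19.0 CPM, and the time points overlapped. Epsilon (Ghrl+) cells had 15.2, 16.6, 14.7 and 7.54 CPM, beside 2.41, 15.7, 7.95 and 24.0 CPM in T or NK cell-like cells, and their change turned sign without 4-week mouse 2. The difference between these types was not tested either. The test for a single outlying sample needs 4 samples in a group, and each time point has 2 mice, so it was not run. By its values, 2-week mouse 2 was highest in Lgals4 in MucinDuctal, Acinar/MucinDuctal, Acinar and EEC cells. In Tuft cells it was not (498 CPM, against 525 CPM in 4-week mouse 2). Its sum of mucin and ductal markers was the lowest in MucinDuctal and Acinar/MucinDuctal cells, but not in Ductal-like or EEC cells.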

How the results depend on the processing

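The number of member and type pairs that passed over time, 1 by the test reported, was 3 by DESeq2, 12 with no filter on low counts, 0 without the robust option, 3 without the cells of highest doublet score and 3 to 16 when a mouse was left out. For all genes, 33 calls over the 14 groups became 165 by DESeq2, 1351 with no filter and 10 without the robust option, and 127 to 2582 when a mouse was left out. A lone mouse is then assumed to vary like the others. The 3 pairs of DESeq2 were Itln1 in Acinar and Acinar/MucinDuctal cells and Agr2 in MucinDuctal cells. Tspan8 in ECL (Tac1+) cells had a log2 change of 1.23 to 1.73 when a mouse was left out. It lost its call by DESeq2 (adjusted p = 0.141) and by edgeR's quasi-likelihood test without the robust option (adjusted p = 0.0893).

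With the acinar enzymes left out of the library size, the log2 ratio of MucinDuctal to Acinar cells fell to 3.24 for Agr2, 4.71 for Spink4, 2.15 for Lgals2, 4.02 for Lgals4 and 4.33 for Tspan8, and that of Tuft to Acinar cells to 4.26 for Tspan8. This follows from taking enzyme UMIs out of the Acinar total. The Lgals4 ratio of MucinDuctal to Acinar cells was 4.63 as a mean over cells and 4.73 in thinned cells. Of the small ratios, 2 changed sign without the enzymes, Spink4 in EEC over Acinar cells (-0.031) and Itln1 in Tuft over Acinar cells (-0.66), the latter lying between -0.18 and 1.19 when a mouse was left out. Of the 70 tested time effects 42 changed sign when some mouse was left out. Among the 24 recomputed under every alternative these were Spink4 in Epsilon (Ghrl+) (-0.98 to 0.21), Lgals2 in MucinDuctal (-1.18 to 0.20), Lgals4 in MucinDuctal (-2.85 to 2.12) and Tuft (-0.39 to 0.19), and Tspan8 in Tuft cells (-0.10 to 0.23). The cause was not tested.

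No paired analysis was possible because the replicate numbers were given in accession order and pair no mice. With 2 mice per time point a change of the size of Agr2 in MucinDuctal cells did not pass by edgeR. Shares of cells with a UMI depend on depth, and 23 of 24 moved under thinning or a threshold of 2 UMIs.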

Other observations

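Lgals2 was higher in some cells without a deposited type than in any deposited type. A mesothelial-like cluster of untyped cells (27, 25, 35 and 24 cells per mouse) had 135, 135, 157 and 195 CPM, and 37.0%, 60.0%, 48.6% and 66.7% of its cells had an Lgals2 UMI. Each of these levels was above every MucinDuctal value (13.6 to 45.3 CPM). In 2-week mouse 1 a single cell held 17 of the 36 UMIs, and without it the level was 74.4 CPM. The exact 95% interval of the share was 19.4% to 57.6% in the mouse with the lowest share.

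An unnamed cluster of untyped cells, led by Cym, Rbp2, Lgals4, Wfdc18, Krt19, Pga5 and Tspan8 among its top genes (13, 67, 107 and 63 cells per mouse), had Lgals4 at 2035, 302, 15.9 and 153 CPM, Tspan8 at 619, 890, 522 and 891 CPM and Agr2 at 244, 1666, 2550 and 5777 CPM. Lgals2 was 2457 CPM in the 13 cells of 2-week mouse 1 and 9.51 to 52.6 CPM in the other mice. The high values of 2-week mouse 1 rested on single cells, which held 257 of 262 Lgals2 UMIs and 193 of 217 Lgals4 UMIs, and without them the levels were 77.6 and 373 CPM. Lgals4 and Tspan8 were among the genes that defined this cluster, so their levels are no finding about it.

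A second unnamed cluster came almost wholly from 4-week mouse 2 (60 of 62 cells), and there Spink4 was 900 CPM and Agr2 2390 CPM. Spink4 was among the genes that led this cluster, so its level is no finding about it, and 40 of the 60 cells had fewer than 1500 UMIs. Untyped enteroendocrine or islet-like cells had 1945, 5013, 2183 and 2286 CPM of Agr2, where the typed EEC cells had 32.3 to 88.5 CPM. Of these untyped cells 61.9%, 66.1%, 56.8% and 59.7% had an Agr2 UMI, and the cell with the most held 13.5% to 27.1% of the UMIs of its mouse. Their mucin and ductal markers summed to 65956, 39450, 61633 and 46214 CPM, against 1825 to 3138 CPM in typed EEC cells. Their enteroendocrine or islet markers summed to 36672, 25900, 84874 and 138402 CPM, below the mucin and ductal sum in both 2-week mice. Typed EEC cells had 55086 to 183245 CPM of the endocrine list. The part of mucin cell RNA in the Agr2 difference was not tested.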
